A study of Mus musculus with 10 samples.

Results

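The genes described here are 48 genes of ribosome biogenesis and RNA polymerase I, taken by their symbols from RPKM tables that list 16771 genes in each of 10 libraries. All 48 symbols were found in every table. By role, 7 belong to RNA polymerase I and its initiation factors, 9 to small nucleolar ribonucleoproteins (snoRNPs), 14 to the small-subunit processome, 5 to late 40S maturation and 11 to 60S assembly, and 2 are other nucleolar proteins. RNA-seq was performed on marrow of C57BL/6 mice, with 2 biological replicates in each of 5 groups, 4 of haematopoietic stem and progenitor cells (HSPC) and 1 of mature neutrophils. The HSPC, isolated by depleting cells with mature lineage markers, came from wild-type (WT) mice, from Npm1flox-cA/+;Mx1-Cre+ mice (Npm1c), from Flt3ITD/+ mice (Flt3-ITD), and from Npm1flox-cA/+;Flt3ITD/+;Mx1-Cre+ mice (double mutant). The neutrophils were isolated by negative selection from WT marrow. Mx1-Cre is an interferon-inducible recombinase active in blood cells and in other tissues. Neither its induction nor the age of the mice is given in the sources used here.

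Ribosome production begins in the nucleolus, where RNA polymerase I, loaded by UBTF and RRN3, transcribes the shared precursor of most ribosomal RNAs. Box C/D snoRNPs methylate this precursor and box H/ACA snoRNPs pseudouridylate it, while the small-subunit processome folds and cleaves its 5′ part and the PES1-BOP1-WDR12 complex and its partners assemble the large subunit. MYC is a known activator of many of these genes, and the demand for ribosomes is high in cycling progenitors and low in mature neutrophils. NPM1, altered in the Npm1c and double mutant mice, is itself a nucleolar chaperone of ribosome assembly, while FLT3 is a growth factor receptor with tyrosine kinase activity on progenitors.

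RPKM are reads per kilobase of gene, normalized to the reads of the library, with denominators of 40783015 to 57824373 reads per library. The share of those reads that lay on listed genes ran from 60.9% to 74.5% in HSPC and was 81.3% and 81.4% in neutrophils. The median gene of the deposited values also differed between libraries, and not in the order of that share. Levels are given as scaled RPKM, the deposited values divided by a factor per library that centres the median gene, and changes as differences of log2(scaled RPKM + 0.5) ± the standard error of the fit, with n = 2 libraries per group and limma's adjusted p. On deposited RPKM the median gene itself changed against WT HSPC by -0.26 (Npm1c), -0.14 (Flt3-ITD), -0.34 (double mutant) and -0.70 (neutrophils). The lengths implied by the RPKM exceeded the annotated exon length for 28 of the 48 genes, so levels are compared between libraries and never between genes. The 48 genes held 40 to 25034 reads per gene and library.

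Several libraries stood apart in ways that bear on these genes. Y-linked transcripts summed to 12.6 and 13.4 RPKM in Npm1c replicate 2 and Flt3-ITD replicate 1, and to under 0.01 in the other 8 libraries. The double mutant libraries carried 7 dendritic cell markers at a summed 380.8 to 384.1 scaled RPKM, against 27.2 to 27.4 in WT HSPC, and Xcr1 of type 1 dendritic cells stood at 112.6 and 109.6 against 0.216 and 0.166. Their 6 mast cell and basophil markers summed to 6.20 to 9.39, against 370.3 to 390.9 in WT HSPC, and their 6 megakaryocyte and platelet markers to 53.4 to 53.5, against 193.7 to 203.1. Their 6 monocyte and macrophage markers summed to 673.9 to 674.7, against 63.8 to 64.5, and their 7 erythroid markers to 639.5 to 650.4, against 413.0 to 438.4. The 7 HSPC markers summed to 136.0 to 137.8 in the double mutant, above the 96.3 to 96.4 of WT HSPC. That higher sum did not hold marker by marker. On the log2 scale Flt3 (3.285), also counted among the dendritic cell markers, and Cd48 (2.11) rose there against WT. Kit (-0.38), Cd34 (-1.72), Gata2 (-1.85) and Myb (-2.09) fell. The progenitor factor Myb stood at 10.7 and 10.8 against 47.6 and 47.0. In bulk RNA, fewer cells of a type and less RNA per cell cannot be told apart. The 9 neutrophil markers summed to 133463 and 134540 in the neutrophil libraries, which also held mast cell and basophil markers at 661.5 to 678.7, above WT HSPC. In the other HSPC groups the neutrophil markers summed to 43.8 to 58.0 in WT, 86.2 to 390.5 in Npm1c, 241.6 to 252.3 in Flt3-ITD and 88.8 to 103.7 in the double mutant. The part of cell composition in the results below was not tested.

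On scaled RPKM the median level of the 48 genes differed between groups, and single genes departed from its order. The median of the 48 was 13.5 and 13.3 scaled RPKM in WT HSPC, 15.3 and 16.6 in Npm1c HSPC, 12.8 and 14.4 in Flt3-ITD, 10.1 and 10.5 in the double mutant, and 2.99 and 2.96 in neutrophils. On this scale the ranges of WT and Flt3-ITD overlapped, the Npm1c libraries were above both, and the double mutant and neutrophil libraries were below. On deposited RPKM the medians of WT (16.95 and 16.49) and Npm1c (15.38 and 17.13) overlapped. The double mutant, at 9.81 and 10.2, stayed below them. On scaled RPKM, the highest mean among the 4 HSPC groups was that of Npm1c for 36 genes, WT for 9, Flt3-ITD for 2 and the double mutant for 1. The lowest was that of the double mutant for 45. The orders of means were not counted on deposited RPKM or over all genes tested. Both double mutant libraries lay below the other 6 HSPC libraries for 40 of the 48 genes, against 38.9% of 9560 genes tested, and above them for 1, Tcof1, against 38.6%. Both neutrophil libraries lay below all 8 HSPC libraries for 47 genes, against 41% of 10217 genes tested, and above them for Polr1a, against 37.6%.

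**Figure D1:**
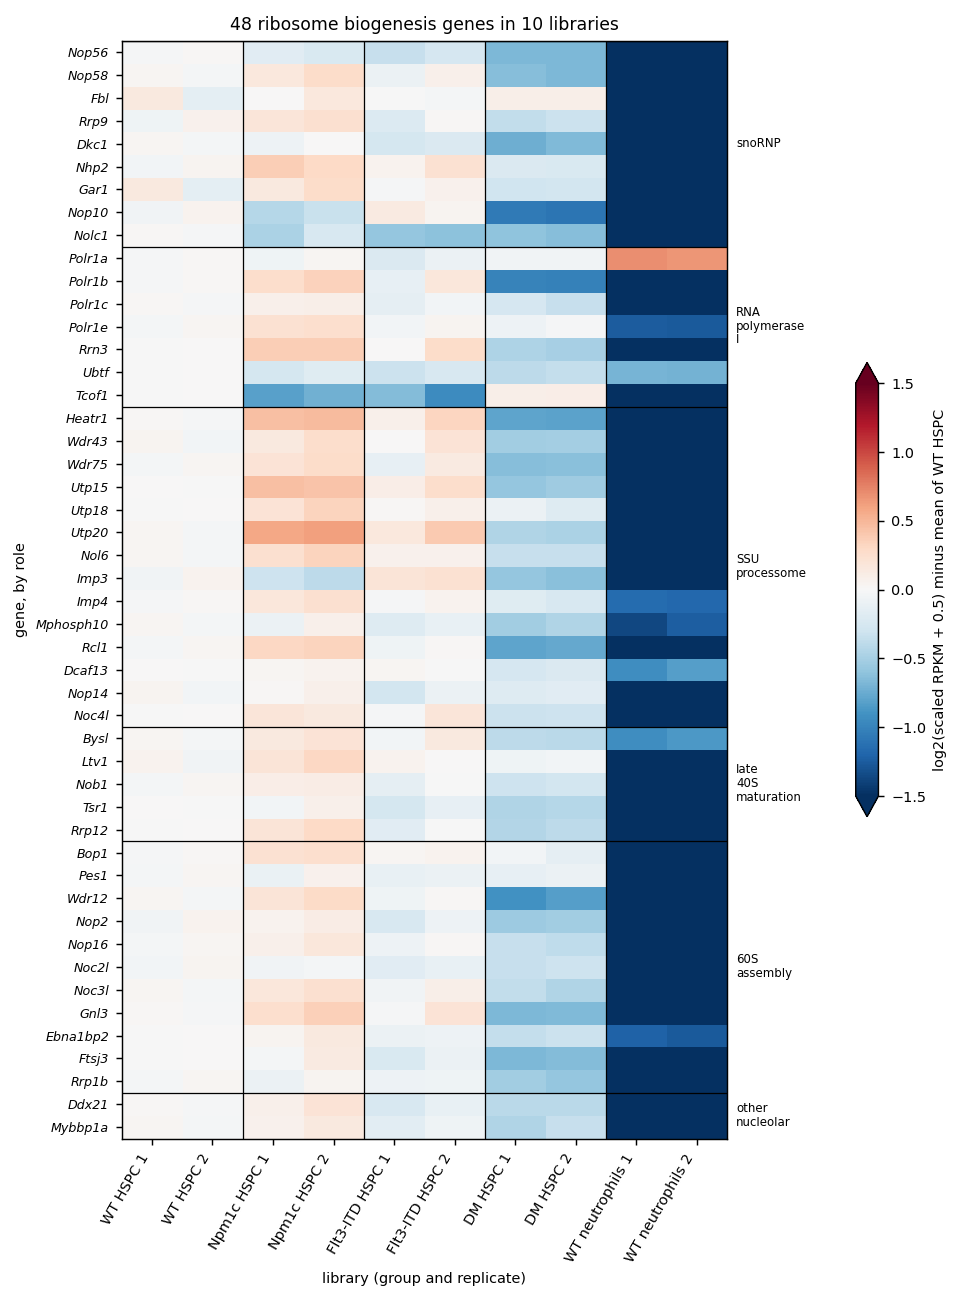
Level of each of the 48 genes (rows, grouped by role) in each of the 10 libraries (columns) as log2(scaled RPKM + 0.5) minus the mean of the 2 WT HSPC libraries, with colours capped at 1.5 in both directions. The double mutant and neutrophil columns are blue in most rows and the Npm1c columns pale red in many, a shift that for 9 of the 18 called rises turns slightly negative on deposited RPKM; Tcof1 and Polr1a stand out against their neighbours.

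Promoters are shown for 3 genes with the E-box CACGTG, the sequence that MYC and its partner MAX bind, and for Polr1a, the gene that departs from the others in neutrophils and holds none. They are RefSeq's 250 bases before to 50 bases after the annotated start on GRCm38.p6, found for 42 of the 48 genes, written 5′ to 3′ on the gene's strand with the E-box in capitals. Utp20 lies at chr10:88826765-88827064 on the minus strand with its E-box beginning at position 37, counted from 0 at the start, Rrn3 at chr16:13780449-13780748 on the plus strand with E-boxes at -215 and -48, Wdr43 at chr17:71615965-71616264 on the plus strand with 1 at position 17, and Polr1a at chr6:71908803-71909102 on the plus strand.
Utp20: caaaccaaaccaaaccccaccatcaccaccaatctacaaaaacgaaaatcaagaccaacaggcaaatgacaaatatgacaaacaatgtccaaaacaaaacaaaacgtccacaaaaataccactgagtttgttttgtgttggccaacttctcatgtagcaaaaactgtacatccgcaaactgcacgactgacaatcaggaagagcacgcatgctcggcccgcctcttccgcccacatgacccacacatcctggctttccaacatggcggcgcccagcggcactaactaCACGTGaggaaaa
Rrn3: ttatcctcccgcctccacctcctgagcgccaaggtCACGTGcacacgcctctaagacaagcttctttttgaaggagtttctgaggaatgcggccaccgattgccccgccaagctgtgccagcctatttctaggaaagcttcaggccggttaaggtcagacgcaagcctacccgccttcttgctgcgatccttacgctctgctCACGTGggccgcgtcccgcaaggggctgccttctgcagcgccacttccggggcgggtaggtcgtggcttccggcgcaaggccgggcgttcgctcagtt
Wdr43: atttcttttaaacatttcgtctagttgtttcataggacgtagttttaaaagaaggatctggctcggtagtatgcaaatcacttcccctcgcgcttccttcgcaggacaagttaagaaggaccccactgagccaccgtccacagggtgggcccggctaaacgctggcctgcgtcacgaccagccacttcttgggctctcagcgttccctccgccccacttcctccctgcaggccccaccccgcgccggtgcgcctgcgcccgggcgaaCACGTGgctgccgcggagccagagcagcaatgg
Polr1a: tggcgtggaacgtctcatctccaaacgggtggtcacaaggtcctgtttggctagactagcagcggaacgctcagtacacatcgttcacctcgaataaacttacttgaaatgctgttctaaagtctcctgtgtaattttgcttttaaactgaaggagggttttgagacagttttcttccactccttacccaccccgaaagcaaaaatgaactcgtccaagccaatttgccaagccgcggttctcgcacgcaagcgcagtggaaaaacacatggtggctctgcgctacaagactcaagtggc

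The palindrome CACGTG occurred in 10 of these 42 promoters (23.8%), those of Rrn3, Utp18, Utp20, Wdr43, Imp4, Ltv1, Tsr1, Nop2, Pes1 and Mybbp1a. It occurred in 12.2% of the promoters of 7312 tested genes in the same table and in 7.15% of all 32851 promoters. The ETS core CCGGAAG, searched on both strands like the motifs that follow, was present in 35.7% of the 42 and 22.3% of the tested genes, the GC box GGGCGG in 76.2% and 69.5%, CCAAT in 40.5% and 42.9%, and TATAAA in 4.76% and 7.99%. No motif listed contains another, and a match describes letters, not binding. For genes with and without the E-box, the median log2 changes in the double mutant against WT were -0.42 (n = 10) and -0.45 (n = 32), in Npm1c 0.20 and 0.13, and in neutrophils -2.03 and -2.44.

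The comparison of Npm1c with WT HSPC sets mice with the Npm1 mutation and Mx1-Cre beside WT mice. No Mx1-Cre is named for the WT or Flt3-ITD mice, so the parts of the mutation and of Mx1-Cre cannot be told apart. This also holds for the double mutant against WT or Flt3-ITD HSPC. In Npm1c, relative to the median gene, 18 of the 48 genes rose (37.5%, against 18.4% of 9560 genes tested) and 6 fell (12.5%, against 20.2%). The rises were led by the processome proteins Utp20, Heatr1 and Utp15, and the falls by Tcof1. The median log2 change of the 48 was 0.15, against -0.01 for all genes tested, so the shift was small for most genes. Its direction depended on the scale. On deposited RPKM 3 genes rose and 21 fell, with a median of -0.14 for the 48 and -0.26 for all genes, and with scaling to the sum of listed genes 9 rose and 7 fell. Heatr1, Utp15 and Utp20 were called higher, and Tcof1, Nop10 and Imp3 lower, in each of 20 alternative analyses. Leaving out WT replicate 1, WT replicate 2 or Npm1c replicate 2 left 7 rises each, and leaving out either WT replicate left 3 falls.

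The comparison of Flt3-ITD with WT HSPC sets mice with the Flt3 duplication beside WT mice. Here 2 of the 48 genes rose, Utp20 and Imp3, against 8.91% of all genes tested, and 5 fell, Tcof1, Nolc1, Nop56, Ubtf and Dkc1, against 9.48%. The median log2 change was -0.02 for the 48 and 0.01 for all genes tested. None of the 7 calls held in every alternative. On deposited RPKM 0 rose and 22 fell. Without Flt3-ITD replicate 1, the lower of the 2 libraries for most of the 48, 10 rose; without replicate 2, 14 fell; without either WT library 0 rose and 0 fell. Rises numbered 1 without either Npm1c library and 0 without either double mutant library. Without both libraries that hold Y-linked transcripts, 12 rose and 5 fell in Flt3-ITD, and 23 rose and 6 fell in Npm1c.

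The double mutant HSPC differed from WT HSPC in a single direction. Of the 48 genes 40 fell (against 39% of 9560 genes tested) and 0 rose (against 38.7%, and 77.8% called in either direction), with a median log2 change of -0.41 against -0.01. Falls were found in all 6 role groups, in 8 of 9 snoRNP genes, 4 of 7 RNA polymerase I genes, 13 of 14 processome genes, 4 of 5 late 40S genes, 9 of 11 large-subunit genes and both other nucleolar genes. The steepest were those of Nop10, Polr1b, Wdr12, Heatr1 and Rcl1. The 8 genes that did not pass were Fbl, Polr1a, Polr1e, Tcof1, Utp18, Ltv1, Bop1 and Pes1. Of the 40 falls, 36 were called in every alternative; the exceptions were Nhp2, Gar1, Imp4 and Nop14. On deposited RPKM 47 fell, and without WT replicate 1 a single gene, Fbl, rose (0.22). The 10 proliferation genes tracked alongside, among them Top2a and Mcm2, all fell in the double mutant (against 39% of genes tested). Their part in the result was not tested.

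**Figure D2:**
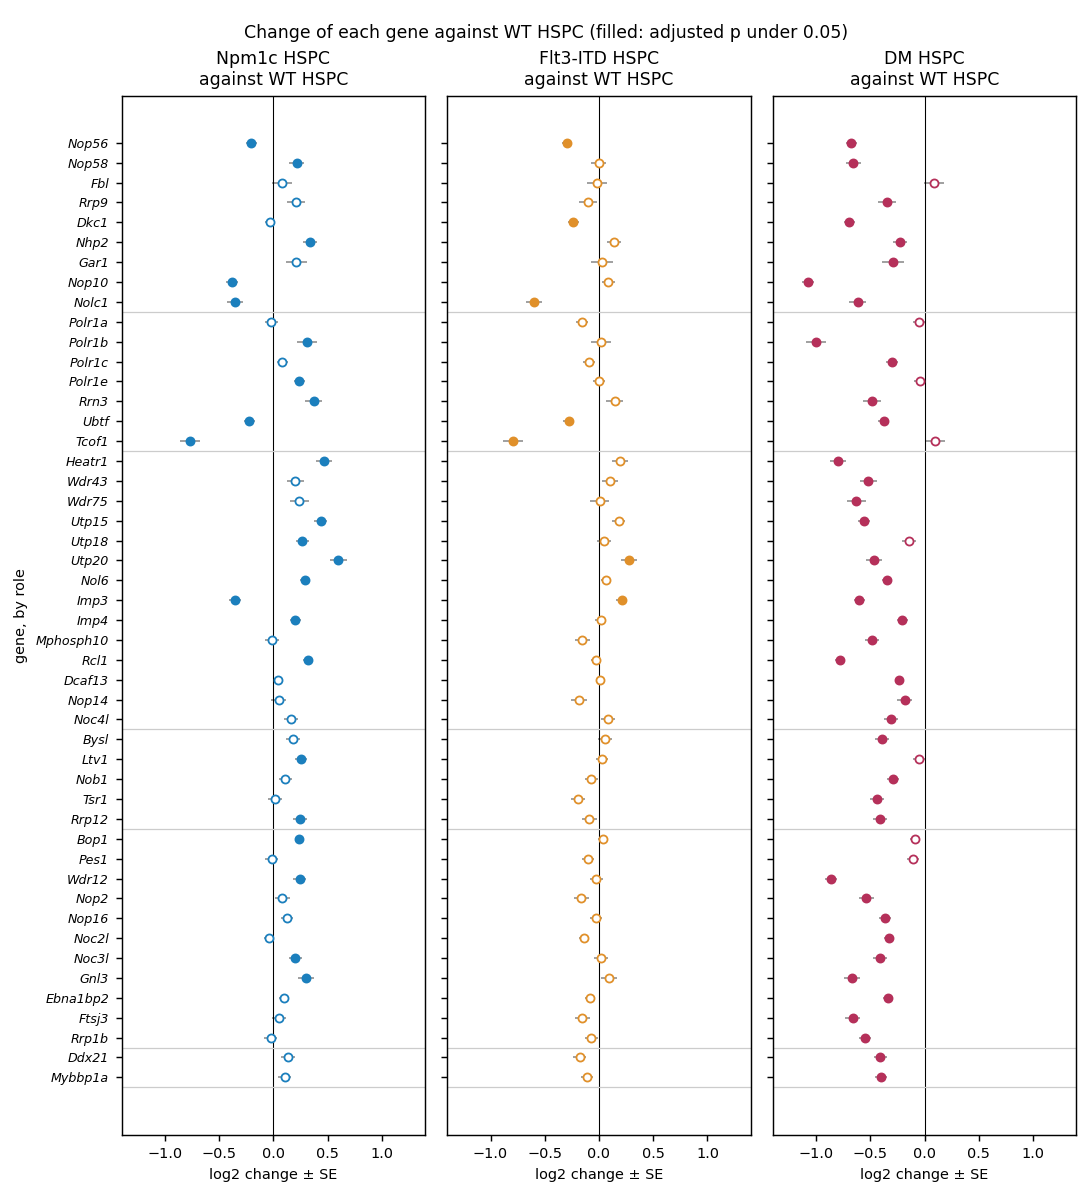
Log2 change ± SE of each of the 48 genes (rows, by role) in Npm1c, Flt3-ITD and double mutant (DM) HSPC, each against the same 2 WT HSPC libraries; filled points have adjusted p under 0.05 in limma. In the double mutant panel Fbl and Tcof1 are the points right of 0, whereas Npm1c points lie mostly right of 0, which on deposited RPKM holds for fewer of them (3 called higher, 21 called lower).

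Set against the single mutants, the double mutant was lower than either. Against Npm1c 44 of the 48 genes fell (against 40.8% of genes tested) and 1 rose (against 40%, and 80.9% in either direction), with a median log2 change of -0.50. Against Flt3-ITD 39 fell (against 39.3%) and 1 rose (against 39%, and 78.3% in either direction), with a median of -0.34. The gene that rose was Tcof1 in both; without Flt3-ITD replicate 2 Polr1a (0.17) also rose against Flt3-ITD. The interaction, the double mutant change minus the sum of both single mutant changes, was negative for 39 genes (against 35.7% of genes tested) and positive for 2 (against 37.8%, and 73.5% in either direction), with a median of -0.46 for the 48 and 0.00 for all genes. These comparisons share libraries with each other and with the preceding ones. Tcof1 kept its positive interaction in every alternative, whereas that of Nolc1 was lost without either WT or either double mutant library, leaving 1 positive call. Positive calls numbered 3 without Flt3-ITD replicate 2 and 4 on deposited RPKM. Of the 39 negative interactions 32 held in every alternative.

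Among the RNA polymerase I genes, Polr1b, which encodes the second-largest subunit, showed the widest swing. It stood at 12.7 and 13.1 scaled RPKM in WT HSPC, 15.6 and 16.6 in Npm1c HSPC, 11.8 and 14.6 in Flt3-ITD, 6.20 and 6.15 in the double mutant and 1.402 and 1.449 in neutrophils. Both double mutant libraries were below every other HSPC library, at -1.004 ± 0.092 on the log2 scale against WT (adjusted p = 4.9e-05), a 2.01-fold reduction. The Npm1c rise, 0.31 ± 0.092 (adjusted p = 0.0383), was called in 11 of 20 alternatives. Rrn3, the factor that makes the polymerase competent to initiate, stood, in the same order of groups, at 31.9 and 32.2, 41.5 and 41.7, 32.3 and 38.9, 23.1 and 22.5, and 7.18 and 7.73. It rose by 0.37 ± 0.080 in Npm1c (adjusted p = 0.0129) and fell by 0.48 ± 0.080 in the double mutant (adjusted p = 0.00107). The Npm1c rise was lost on deposited RPKM (0.08, adjusted p = 0.247) and without any 1 of the WT or Npm1c libraries (adjusted p up to 0.0727). Polr1c, a subunit shared with RNA polymerase III, did not pass in either single mutant and fell in the double mutant (-0.30 ± 0.054). Polr1e rose in Npm1c (0.24 ± 0.052, but -0.01 on deposited RPKM) and had a value of -0.04 in the double mutant.

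Ubtf and Tcof1 behaved otherwise. Ubtf, which keeps ribosomal DNA open for transcription, was at 5.88 and 5.93 scaled RPKM in WT HSPC, 4.83 and 5.15 in Npm1c HSPC, 4.63 and 4.93 in Flt3-ITD, and 4.40 and 4.49 in the double mutant. All 6 mutant libraries were below both WT libraries, and Ubtf fell in each comparison with WT, by 0.22, 0.28 and 0.37 on the log2 scale. The falls in the single mutants were lost without either WT library, and also without Npm1c replicate 1 in Npm1c and with library weights in Flt3-ITD (highest adjusted p over the alternatives 0.0854 in Npm1c and 0.107 in Flt3-ITD). Tcof1, whose protein treacle ties UBTF and RNA polymerase I to ribosomal RNA modification, stood at 4.55 and 4.55 in WT HSPC, 2.37 and 2.57 in Npm1c HSPC, 2.73 and 2.13 in Flt3-ITD, 4.88 and 4.91 in the double mutant and 0.787 and 0.784 in neutrophils. The 4 single mutant libraries did not overlap with WT or the double mutant. The changes of -0.77 ± 0.094 for Npm1c (adjusted p = 0.00236) and -0.80 ± 0.094 for Flt3-ITD (adjusted p = 0.00562) were the largest falls of the 48 genes in each comparison, and the second was lost without either WT replicate (highest adjusted p 0.0562). The double mutant value against WT was 0.09 (adjusted p = 0.386), which made the interaction 1.66 ± 0.13 (adjusted p = 3.68e-05).

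Of the box C/D snoRNP genes, Nop56 and Nop58 encode the paired core scaffold, Fbl the methyltransferase and Rrp9 the protein of the U3 snoRNP. Nop56 was at 9.69 and 9.93 scaled RPKM in WT HSPC, 8.64 and 8.27 in Npm1c HSPC, 7.63 and 8.17 in Flt3-ITD and 5.94 and 5.96 in the double mutant, a fall in all 3 comparisons with WT. The falls in the single mutants were lost without either WT replicate, and that in Npm1c also without Npm1c replicate 2 (highest adjusted p 0.103 in Npm1c and 0.0934 in Flt3-ITD). Nop58 was at 11.1 and 10.7, 12.2 and 13.3, 10.3 and 11.6, and 6.85 and 6.65, so that the Npm1c libraries were above WT (0.22, but -0.07 on deposited RPKM) and only the double mutant was below (-0.66 ± 0.068, adjusted p = 9.51e-05). Fbl did not follow its partners. Its levels, 60.5 and 49.7 in WT HSPC, 55.3 and 61.1 in Npm1c HSPC, 54.5 and 53.7 in Flt3-ITD and 58.1 and 58.2 in the double mutant, overlapped between WT and each of the other 3 groups. The double mutant change of Fbl was 0.08 ± 0.092 (adjusted p = 0.428) and turned to -0.28 (adjusted p = 0.0499) on deposited RPKM. Rrp9 fell in the double mutant (-0.35 ± 0.083).

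The box H/ACA proteins Dkc1, Nhp2, Gar1 and Nop10 form 1 particle but did not change by the same amounts. Nop10 stood at 62.2 and 66.5 scaled RPKM in WT HSPC, 47.7 and 50.8 in Npm1c HSPC, 70.7 and 66.0 in Flt3-ITD, 30.7 and 29.9 in the double mutant and 9.332 and 10.03 in neutrophils. It was lower than WT in both Npm1c libraries and lowest of HSPC in the double mutant, where it fell by 1.07 ± 0.057 on the log2 scale (adjusted p = 3.18e-06), the largest fall of the 48. Nhp2, by contrast, rose in Npm1c from 45.6 and 48.4 to 61.0 and 58.1 (0.34 ± 0.067, adjusted p = 0.0100, but 0.421 on deposited RPKM, 0.0679 with WT replicate 1 left out and 0.0540 with Npm1c replicate 1 left out) and fell in the double mutant to 40.2 and 40.1 (-0.22 ± 0.067, adjusted p = 0.0178). Dkc1, the pseudouridine synthase, fell in the double mutant by 0.69 ± 0.050 and had a value of -0.03 in Npm1c. Nolc1, a chaperone of snoRNPs between nucleolus and Cajal bodies, fell in each mutant, from 44.8 and 43.4 in WT HSPC to 31.7 and 37.4 in Npm1c HSPC, 29.4 and 28.5 in Flt3-ITD and 28.9 and 28.3 in the double mutant. The single mutant falls were lost without either WT replicate (highest adjusted p 0.0711 and 0.0623). Its levels in Flt3-ITD and the double mutant overlapped, and its interaction was positive (0.33 ± 0.11, adjusted p = 0.0239).

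Of the 14 genes of the small-subunit processome, 7 rose and 1 fell in Npm1c on this scale (against 18.4% and 20.2% of all genes tested), and 13 fell in the double mutant (against 39%). On deposited RPKM the rises of Utp18 and Imp4 turned negative. Utp20, a large scaffold of the particle, was at 12.3 and 11.7 scaled RPKM in WT HSPC, 18.2 and 18.7 in Npm1c HSPC, 13.5 and 15.9 in Flt3-ITD, 8.62 and 8.49 in the double mutant and 1.37 and 1.56 in neutrophils. The 5 groups did not overlap. Its changes were 0.60 ± 0.075 for Npm1c (adjusted p = 0.00258), 0.28 ± 0.075 for Flt3-ITD (adjusted p = 0.0458, called in 9 of 20 alternatives) and -0.46 ± 0.075 in the double mutant (adjusted p = 0.000943), with an interaction of -1.34 ± 0.11. Heatr1, a subunit of the early UtpA complex that is also needed for ribosomal DNA transcription, stood at 31.7 and 30.9, 43.0 and 43.8, 33.1 and 39.1, 17.8 and 17.8, and 4.81 and 5.37 in the same order of groups. It rose by 0.47 ± 0.074 in Npm1c and fell by 0.80 ± 0.074 in the double mutant, and its interaction of -1.46 ± 0.10 (adjusted p = 2.2e-05) was the largest negative one of the 48. Utp15, another UtpA subunit, was at 16.5 and 16.5, 22.6 and 22.3, 17.7 and 19.8, and 10.9 and 11.2 in HSPC, with an interaction of -1.18 ± 0.082.

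**Figure D3:**
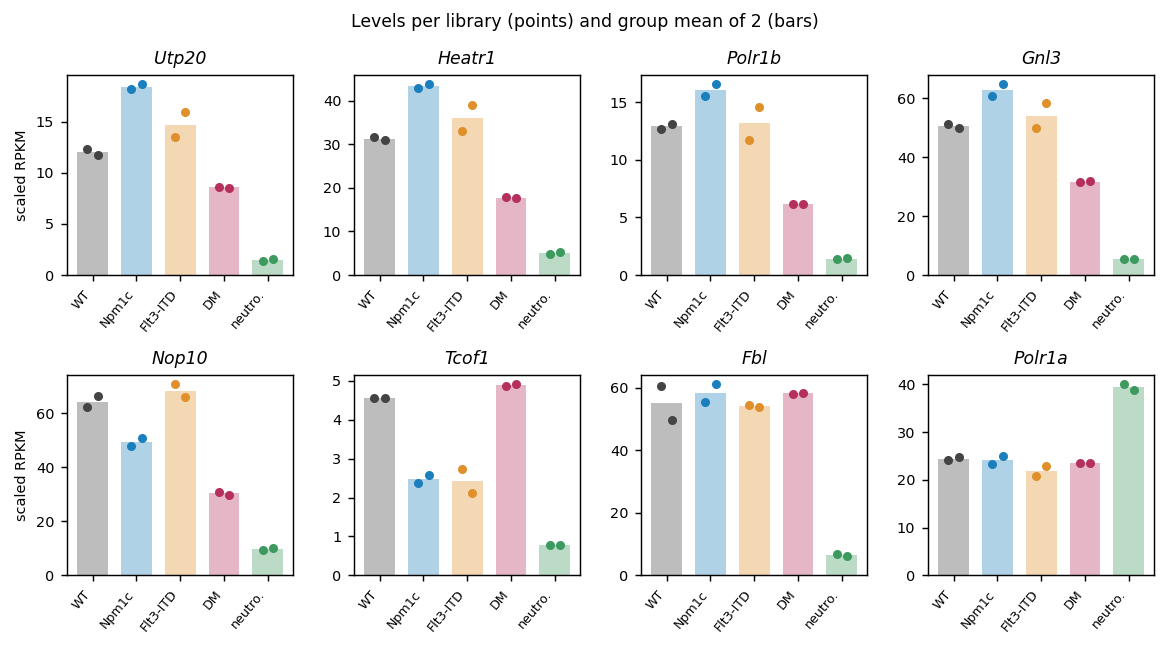
Scaled RPKM of 8 genes in each library (points) with the mean of the 2 libraries of each group (bars, from 0). Utp20, Heatr1, Polr1b and Gnl3 are highest in Npm1c on this scale and lower in the double mutant than in the other HSPC. On deposited RPKM the Npm1c libraries overlap with those of WT HSPC for Polr1b and Gnl3. Tcof1 is low in the single mutants, and Fbl is level across HSPC. Polr1a is highest in neutrophils on this scale but not on deposited RPKM or when scaled to the sum of listed genes.

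The other processome genes followed these to different extents. Rcl1 rose in Npm1c from 30.1 and 31.4 to 38.3 and 38.8 scaled RPKM (0.32 ± 0.044, with limma's adjusted p = 0.609 on deposited RPKM). It fell in the double mutant to 17.6 and 17.9 (-0.78 ± 0.044). Nol6 rose by 0.29 in Npm1c (adjusted p = 0.918 on deposited RPKM). Utp18 (0.27) and Imp4 (0.20) also rose in Npm1c, but both turned to slightly negative values, -0.01 and -0.07, on deposited RPKM. Wdr43 stood at 44.0 and 41.7 in WT, 47.3 and 51.5 in Npm1c and 29.7 and 29.8 in the double mutant. Its Npm1c change, 0.20, did not pass (adjusted p = 0.0723), while its fall in the double mutant, -0.52 ± 0.076, did. Imp3, a U3-binding partner of Imp4 and Mphosph10, differed from both in the single mutants and fell with them in the double mutant. Its levels were 39.3 and 42.1 in WT HSPC, 32.7 and 30.8 in Npm1c HSPC, 46.6 and 47.7 in Flt3-ITD and 27.1 and 26.2 in the double mutant, without overlap between any 2 groups. It fell in Npm1c (-0.36 ± 0.052, adjusted p = 0.00389), rose in Flt3-ITD (0.21 ± 0.052, adjusted p = 0.0357, called in 11 of 20 alternatives) and fell in the double mutant (-0.60 ± 0.052). Mphosph10, Wdr75, Noc4l, Dcaf13 and Nop14 fell in the double mutant and did not pass in either single mutant.

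Of the late 40S genes, Ltv1 (0.25) and Rrp12 (0.24), 2 export-linked factors, rose in Npm1c, and both had values of -0.04 on deposited RPKM. Bysl, Nob1, Tsr1 and Rrp12 fell in the double mutant, by 0.40, 0.29, 0.44 and 0.41. Nob1, the endonuclease that makes the mature 3′ end of small-subunit ribosomal RNA, stood at 3.72 and 3.90 scaled RPKM in WT HSPC, 4.13 and 4.17 in Npm1c HSPC, 3.42 and 3.81 in Flt3-ITD and 2.97 and 3.07 in the double mutant. The WT and Flt3-ITD libraries overlapped and the double mutant was below every other HSPC library. Ltv1 was at 21.6 and 20.1 in WT HSPC and 19.9 and 20.1 in the double mutant, which overlapped.

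For 60S assembly, the 3 subunits of the PES1-BOP1-WDR12 complex differed. Wdr12 was at 4.66 and 4.49 scaled RPKM in WT HSPC, 5.32 and 5.69 in Npm1c HSPC, 4.34 and 4.64 in Flt3-ITD and 2.21 and 2.37 in the double mutant, a fall of 0.86 ± 0.059 on the log2 scale (adjusted p = 1.08e-05). Bop1 was at 25.6 and 26.2, 30.4 and 31.0, 26.4 and 26.8, and 25.2 and 23.5, and its double mutant value of -0.09 ± 0.046 did not pass (adjusted p = 0.111). Pes1 had values of -0.02 in Npm1c, -0.10 in Flt3-ITD and -0.11 in the double mutant, and none passed. On deposited RPKM the double mutant falls of Bop1 (-0.45) and Pes1 (-0.46) did pass. In Npm1c Wdr12 and Bop1 rose by 0.24 each, which turned to -0.03 and -0.05 on deposited RPKM. Gnl3, nucleostemin, a GTPase of stem cell nucleoli, was at 51.347 and 50.004 in WT HSPC, 60.7 and 64.8 in Npm1c HSPC, 50.001 and 58.255 in Flt3-ITD, 31.5 and 31.8 in the double mutant and 5.402 and 5.494 in neutrophils. It rose in Npm1c (0.30 ± 0.074, adjusted p = 0.0185; 0.867 on deposited RPKM) and fell in the double mutant (-0.67 ± 0.074, adjusted p = 0.000123). Nop2, Nop16, Noc2l, Noc3l, Ebna1bp2, Ftsj3 and Rrp1b also fell in the double mutant, by 0.33 to 0.66. Of these, Noc3l rose in Npm1c (0.20, but -0.08 on deposited RPKM). The helicase Ddx21 and the MYB-binding protein Mybbp1a fell in the double mutant by 0.41 and 0.40 and did not pass in the single mutants.

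WT neutrophils were compared with WT HSPC to set the mutants beside normal maturation. In neutrophils 47 of the 48 genes fell (against 46.6% of 10217 genes tested) and 1, Polr1a, rose (against 44.6%, and 91.2% called in either direction). The median log2 change was -2.31 for the 48 and -0.04 for all genes tested. The 47 falls were called in each of 19 alternatives. Gnl3 fell furthest, by 3.10 ± 0.069 on the log2 scale (8.60-fold), followed by Fbl, from 60.5 and 49.7 to 6.76 and 6.29 scaled RPKM (-2.98 ± 0.089). Fbl, which did not pass in any mutant, fell in neutrophils like the other 8 snoRNP genes. The smallest falls were those of Ubtf (-0.70 ± 0.048), Dcaf13 (-0.88 ± 0.044) and Bysl (-0.90 ± 0.062). Ubtf was at 3.45 and 3.42 in neutrophils, Dcaf13 at 27.9 and 27.5 in WT HSPC and 14.2 and 15.4 in neutrophils, and Bysl at 13.1 and 12.6 and then 6.49 and 6.87. In each case the neutrophil libraries lay below the WT HSPC libraries.

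**Figure D4:**
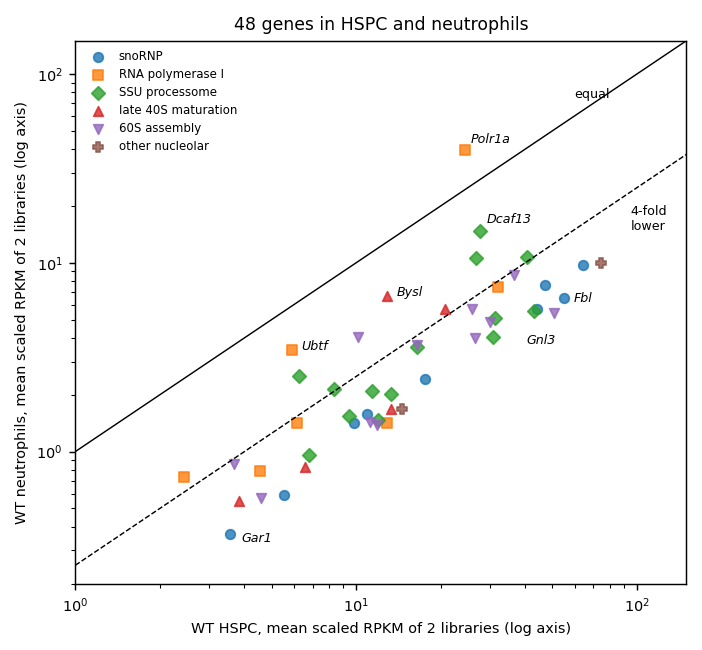
Mean scaled RPKM of 2 WT neutrophil libraries (y, log axis) against that of 2 WT HSPC libraries (x, log axis) for the 48 genes, coloured by role; the solid line marks equal levels and the dashed line a level 4-fold lower. Polr1a lies above the solid line on this scale, but not on deposited RPKM or when scaled to the sum of listed genes, and the other 47 lie below it.

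Polr1a, the largest subunit and catalytic core of RNA polymerase I, stood at 24.1 and 24.7 scaled RPKM in WT HSPC, 23.3 and 24.9 in Npm1c HSPC, 20.9 and 22.9 in Flt3-ITD, 23.5 and 23.6 in the double mutant and 39.99 and 38.76 in neutrophils. Neutrophils did not overlap with HSPC, and the change was 0.68 ± 0.054 (adjusted p = 2.67e-06). The direction did not hold across scales, with -0.10 (adjusted p = 0.0969) on deposited RPKM and -0.53 (adjusted p = 1.01e-05) when scaled to the sum of listed genes. In the HSPC comparisons Polr1a did not pass. An unstranded count could add reads of the non-coding gene Gm26628, which overlaps it on GRCm38 in GENCODE release 21 of the mouse.

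The other genes of the pathway, 110 genes of the same roles, had these counts. In the double mutant 65 fell and 14 rose (against 39% and 38.7% of all genes tested), with a median log2 change of -0.24. The 10 other RNA polymerase I genes among them did not share this fall. Against WT 3 of these 10 rose and 3 fell, with a median of 0.05. Against Npm1c 6 rose and 3 fell (against 40% and 40.8% of all genes tested), and against Flt3-ITD also 6 and 3 (against 39% and 39.3%). In Npm1c 44 rose and 6 fell (against 18.4% and 20.2%), with a median of 0.14 on this scale. In Flt3-ITD 6 rose and 8 fell, which is 5.45% and 7.27% and near the 8.91% and 9.48% of all genes, with a median of 0.00. In neutrophils 99 fell and 6 rose (against 46.6% and 44.6%), with a median of -1.42. Double mutant falls with the smallest adjusted p included Ruvbl2 and Ruvbl1, ATPases of snoRNP assembly, at -0.71 and -0.65. Against this, Sdad1, a 60S factor, rose from 9.58 and 9.47 scaled RPKM in WT HSPC to 20.6 and 20.4 in the double mutant (1.07 ± 0.041, adjusted p = 6.18e-07) but fell in neutrophils (-2.56). Baz2a, a silencer of ribosomal DNA repeats, rose in the double mutant (0.91) and in neutrophils (1.83), as did the kinase gene Riok3 (0.68 and 2.37). In Npm1c 2 genes of RNA polymerase I went opposite ways. Taf1d, a subunit of its promoter selectivity factor, rose from 13.8 and 12.9 to 24.4 and 25.8 (0.88 ± 0.068, adjusted p = 0.000816), while Cd3eap, a subunit of the polymerase, fell from 9.18 and 9.08 to 5.96 and 6.24 (-0.55 ± 0.054, adjusted p = 0.00140).

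Of the nucleolar chaperones, Npm1 itself stood at 230.2 and 228.3 scaled RPKM in WT HSPC, 263.9 and 284.9 in Npm1c HSPC, 246.8 and 269.1 in Flt3-ITD, 150.1 and 147.0 in the double mutant and 26.4 and 27.6 in neutrophils. Its rise in Npm1c, 0.26 ± 0.058 (adjusted p = 0.0152), turned to -0.04 on deposited RPKM and did not pass with either of the other scalings, while its fall in the double mutant (-0.62 ± 0.058) passed on all 4 scales. These are totals over both alleles and check no genotype label. Npm3 fell in the double mutant by 0.50 ± 0.062 and Ncl, nucleolin, did not pass there (-0.27 ± 0.15, adjusted p = 0.145), but fell on the other 3 scales (-0.63 on deposited RPKM). Myc was at 5.21 and 5.33 in WT HSPC, 8.49 and 7.74 in Npm1c HSPC, 6.86 and 6.43 in Flt3-ITD, 4.03 and 4.03 in the double mutant and 0.422 and 0.413 in neutrophils, without overlap between any 2 groups. It rose by 0.58 ± 0.057 in Npm1c and by 0.31 ± 0.057 in Flt3-ITD (adjusted p = 0.0172; 0.2 on deposited RPKM) and fell by 0.35 ± 0.057 in the double mutant. Of the 10 MYC family genes tested, 4 rose and 1 fell in the double mutant on this scale (against 38.7% and 39% of all genes), with a median log2 change of 0.06. Mycl, a paralogue of Myc, rose there from 0.334 and 0.284 to 23.4 and 23.6 (4.89 ± 0.063, adjusted p = 4.28e-09). Mxd1, which encodes a MAX partner that represses MYC targets, stood at 2.76 and 2.68 in WT HSPC, 6.92 and 7.35 in the double mutant and 236.0 and 233.3 in neutrophils. Mki67, a proliferation marker, stood at 101.6 and 93.3, 33.3 and 35.6, 36.3 and 30.1, 74.2 and 72.0, and 57.7 and 60.4 in the order of groups used above, so it was lowest in the single mutants. It was the 1 proliferation gene of 10 that rose in the double mutant against Npm1c (1.076) and against Flt3-ITD (1.133). The other 9 fell in both. Of all genes tested, 40% rose and 40.8% fell against Npm1c, and 39% rose and 39.3% fell against Flt3-ITD. Against WT, 8 of the 10 fell and 0 rose in Npm1c (against 20.2% and 18.4% of all genes). Of the 5 genes of the p53 arm, 3 rose and 0 fell in Npm1c on this scale (against 18.4% and 20.2%), and 2 rose and 2 fell in the double mutant (against 38.7% and 39%). Cdkn1a rose in Npm1c (0.89 ± 0.16, adjusted p = 0.00785) and in the double mutant (2.27 ± 0.16, adjusted p = 1.5e-05), and Mdm2 rose in both (0.43 and 0.35, the latter 0.06 on deposited RPKM and 0.14 with quantile normalization, where it did not pass). Trp53 (-0.32 ± 0.049, adjusted p = 0.00075) and the ribosomal protein gene Rpl5 (-0.12 ± 0.041, adjusted p = 0.0289) fell in the double mutant.

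**Figure D5:**
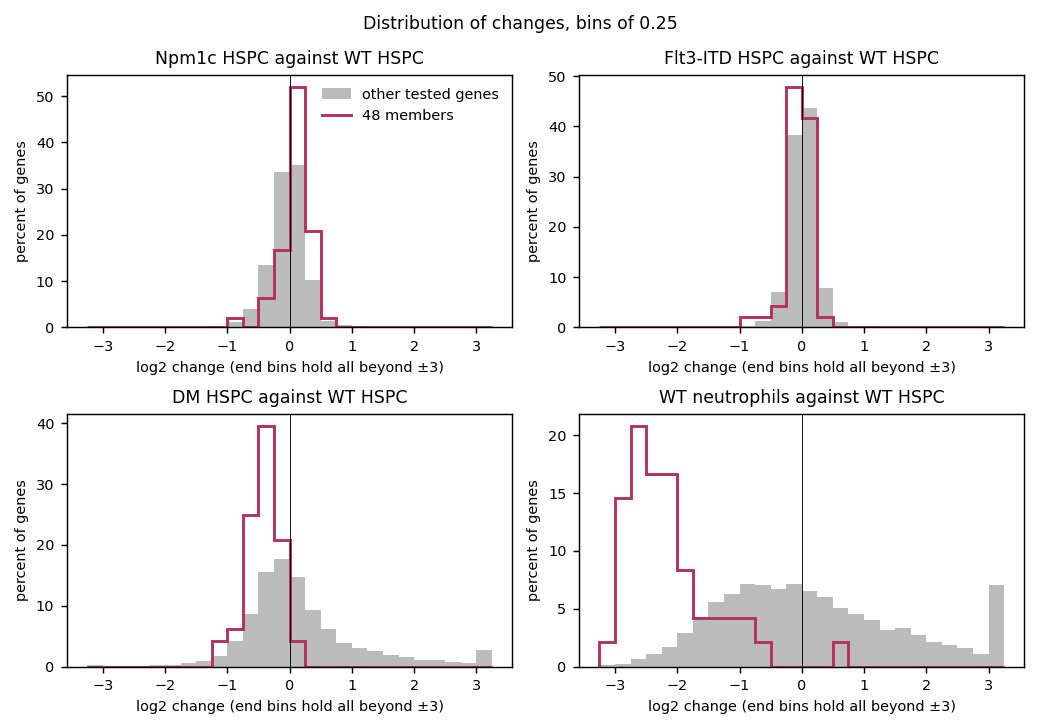
Percent of genes by log2 change in bins of 0.25 for the 48 genes (red outline) and all other tested genes (grey) in 4 comparisons with WT HSPC; the end bins hold all values beyond 3 in either direction. The outline is centred near the grey in Flt3-ITD, slightly right of it in Npm1c (median 0.15, but -0.14 on deposited RPKM, where all genes are at -0.26), left of it in the double mutant (median -0.41) and far left in neutrophils (median -2.31).

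Across the 8 HSPC libraries, which are 4 groups of 2 with the double mutant lowest, the genes outside all lists whose log2 levels ran most like the mean of the 48 were Nsun5, Gemin5, Orc5, Thumpd1 and Hbs1l, with Pearson's r of 0.998, 0.997, 0.997, 0.997 and 0.997. Nsun5 was at 1.75 and 1.76 scaled RPKM in WT HSPC, 1.93 and 2.02 in Npm1c HSPC, 1.51 and 1.73 in Flt3-ITD and 1.02 and 1.07 in the double mutant. Within the 48, Tcof1 (r = -0.67), Fbl (-0.14) and Polr1a (0.19) ran least like the mean of the other 47, and Nop58 most (0.99). These are descriptions of libraries that share their groups.

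The 48 genes lie on 19 chromosomes. Of them 6 hold snoRNA genes inside them on the same strand in GENCODE, namely Nop56 (5), Nop58 (4), Wdr43 (3), Gnl3 (3), Tsr1 (2) and Dkc1 (1). These 6 all fell in the double mutant, as did 34 of the other 42 (against 39% of all genes tested), with a median log2 change of -0.66 against -0.37 for the other 42, and reads of the snoRNAs may be part of the gene totals. Exons of 14 genes overlap those of another protein-coding gene, such as Bysl with Ccnd3, Heatr1 with Lgals8 and Gnl3 with Pbrm1. The strand of the overlapping gene was not part of this search. Whether counting used the strand is not given in the sources used here, so reads of such pairs cannot be told apart.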

How the data were processed

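The RPKM values, 1 table per library, are as the authors deposited them, made from ribosomal RNA-depleted, directional libraries per the labels' protocols. STAR 2.4.0, HTSeq, DiffBind and mm10 are named per the submitters' processing notes. Their roles, the annotation, strand use and multi-mapping reads were not stated in those notes or labels. The deposited design text describes the replicates as biological.

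RPKM were divided by a factor per library, the median ratio to the geometric mean over 6490 genes with at least 1 RPKM in all 10 libraries. Because RPKM are not counts, changes were tested with limma 3.58.1 (R 4.3.3) on log2(scaled RPKM + 0.5), which understates changes of low genes, with a variance trend and Benjamini-Hochberg adjustment at 0.05. Genes with at least 1 scaled RPKM in at least 2 fitted libraries entered, 9560 for HSPC (8 libraries) and 10217 for neutrophils (10 libraries); all 48 genes passed. The scripted fit was tested on simulated data in which few genes changed, which cannot test the choice of scaling. Whole reads were recovered from the steps of the RPKM values, within 0.02 reads, for 16655 of 16655 genes above 0 in at least 2 libraries, which gave the denominators; of 5705 genes checked, 99.965% then had a whole-number length in bases. No count test was run on these reads. Replicates of each group differed beyond sampling noise, so each counted as 1 sample. That spread was unequal. The replicate SD of the 48 genes on the log2 scale was 0.0325 in the double mutant and 0.0763 in Flt3-ITD HSPC. The fit pooled each gene's spread over the fitted groups, so standard errors and adjusted p do not reflect this difference.

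The 48 genes, role groups, other lists and tests were chosen with earlier results of these data known. All 48 could be named; of the other pathway genes, up to 4 per direction and comparison with the smallest adjusted p, besides Npm1, Npm3 and Ncl; of the context lists Myc, Mxd1, Mki67 and the p53 arm, and of the marker lists any gene as a level. Top2a, Mcm2 and Mycl were named outside this rule after their values were seen. Positions come from GENCODE release 21 of the mouse (GRCm38), promoters from RefSeq (GRCm38.p6). Alternatives were other scalings (deposited RPKM, sum of listed genes, quantile), pseudocounts of 0.1 and 1, no filter, library weights, a replicate block, each library left out and, added after seeing the data, factors from the 8 HSPC libraries and leaving out both libraries with Y-linked transcripts. Tables came from pandas 2.3.3, NumPy 2.4.6 and SciPy 1.17.1 under Python 3.11.15; matplotlib 3.10.9 drew the plots.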

Additional observations from a re-analysis of the deposited data

Results flagged for a closer look

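The double mutant change differed from the sum of the single mutant changes: the interaction in limma was negative for 39 of the 48 genes and positive for 2. Among the named genes it was -1.46 for Heatr1, -1.34 for Utp20, -1.33 for Polr1b, -1.18 for Utp15, -1.08 for Wdr12 and -1.07 for Rcl1 on the log2 scale, each with a higher level in Npm1c and a lower level in the double mutant than in WT HSPC, although the rise of Wdr12 turned to -0.03 on deposited RPKM. It was 1.66 for Tcof1 and 0.33 for Nolc1, which were both lower in the single mutants. The interaction was also negative for 35.7% and positive for 37.8% of all genes tested. The double mutant libraries were those with the dendritic cell markers, whose part in the interaction was not tested.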

How the results depend on the processing

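On deposited RPKM the counts for Npm1c were 3 rises and 21 falls, for Flt3-ITD 0 and 22, for the interaction 4 positive, and for neutrophils 0 rises; scaled to the sum of listed genes, Npm1c had 9 rises, Flt3-ITD 0 rises and 17 falls, and neutrophils 0 rises. On deposited RPKM the rise in Npm1c turned for Nop58 (-0.068), Polr1e (-0.0094), Utp18 (-0.014), Imp4 (-0.072), Ltv1 (-0.036), Rrp12 (-0.041), Bop1 (-0.050), Wdr12 (-0.027) and Noc3l (-0.082), of which 0 passed as falls. Positive Npm1c values that had not passed became falls that did for Polr1c (-0.19), Dcaf13 (-0.25), Nop14 (-0.24), Nob1 (-0.15), Tsr1 (-0.26), Nop2 (-0.21), Ebna1bp2 (-0.19), Ftsj3 (-0.24) and Mybbp1a (-0.18). Values also turned on deposited RPKM in the double mutant for Fbl (-0.28) and in neutrophils for Polr1a (-0.10, and -0.53 scaled to the sum of listed genes). In Flt3-ITD 0 genes rose without a filter, with library weights (3 falls) and with a replicate block. The share of all calls that were falls, 52.3% (Npm1c), 51.5% (Flt3-ITD), 50.2% (double mutant) and 51.1% (neutrophils), was 95.9%, 94.4%, 71.2% and 68.8% on deposited RPKM and 76.1%, 83.6%, 60.9% and 76.2% with the sum of listed genes; with quantile normalization it moved from 50.2% to 64.4% in the double mutant, from 50.5% to 64.5% and from 50.2% to 63.9% (63% on deposited RPKM) for the double mutant against Npm1c and against Flt3-ITD, and from 48.6% to 62.7% for the interaction.

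Leaving out each library in turn gave 7 to 25 rises and 3 to 6 falls in Npm1c, 0 to 10 and 0 to 14 in Flt3-ITD, 0 to 1 rises in the double mutant against WT and 1 to 2 against Flt3-ITD, and 1 to 3 positive interactions. With factors from the 8 HSPC libraries there were 2 rises against Flt3-ITD and 4 positive interactions, and without both libraries with Y-linked transcripts 12 rises in Flt3-ITD. Same-numbered replicates showed little shared deviation over genes (correlations -0.109 to 0.096, 0 of 10 pairs above 0.1, the lowest for Npm1c with Flt3-ITD). This cannot show whether they were collected or processed together. The replicate block gave 18 rises and 6 falls in Npm1c and 39 falls in the double mutant. Of all gene-level results over the alternatives, 6311 kept their direction and call, 190 lost it, 150 gained it and 21 turned. The cause was not tested.

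With 2 libraries per group the spread rests on few samples, and the 48 genes held 40 to 25034 reads per gene and library.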
